A study of Arabidopsis thaliana with 3 samples.

Results

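A set of 6 locus codes of Arabidopsis thaliana carried no gene symbol in the tables used here and stood at or above 1.5-fold on the positive side on every array of a short auxin time course. They are AT5G66580, AT1G68360, AT3G51410, AT4G09890, AT1G03820 and AT4G38820, and they were chosen by exactly these values, so their ratios are given as a description with no test. They are 6 of the 12127 named genes with a value on all 3 arrays, and 6 of the 10687 of these that lack a symbol. The series compared 4-day-old dark-grown Col-0 seedlings submerged in 10 µM the natural auxin indole-3-acetic acid (IAA) with seedlings submerged in the 0.1% ethanol carrier. Both groups were harvested together at 20, 40 or 60 minutes and set against each other on 1 two-colour array per time. IAA was dissolved in the same 0.1% ethanol, so both groups carry the solvent and the handling. There were no replicates of any time, and whole seedlings were used, so a change in the number of cells of a type and a change in RNA per cell cannot be told apart. The arrays give ratios and no transcript levels, so the labelled material was not checked against tissue markers.

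Auxin acts in the nucleus by bringing TIR1/AFB receptors together with Aux/IAA repressors, which are then degraded, and auxin response factors can activate their targets. The transcripts that respond first include those of the Aux/IAA repressors themselves, of GH3 enzymes that conjugate auxin to amino acids, and of SAUR genes, small proteins linked to cell expansion. RefSeq lists the 6 genes as protein-coding and gives them no name or function, apart from clone names for 5 of them.

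Which channel forms the numerator of the deposited log2 ratios is not stated in the labels. Positive values likely mean more transcript in IAA than in ethanol, judging by the labelled channels (ethanol first, IAA second) and by the early auxin genes described below. Of those, 7 of 18 measured members were at least 1.5-fold positive at every time and 0 were at least 1.5-fold negative at every time, where the shares of all named genes were 0.107% and 0%. These lists were drawn up with earlier results of these data known, so the count is not independent evidence of the direction. All values below are deposited log2 ratios on that scale, on which 1.5-fold is 0.58 and 2-fold is 1.

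AT5G66580 stood highest of the 6 at every time. At 20, 40 and 60 minutes its log2 ratios were 1.80, 1.97 and 1.70, or deposited ratios of 3.49, 3.93 and 3.25. As deposited, these values lay within 0.27 of each other. With the arrays scaled to the same median absolute deviation, its log2 ratios were 1.74, 1.42 and 2.46. Whether the first array was near the highest value thus depended on the processing. Among all named genes it ranked 4 at 20 minutes, 7 at 40 minutes and 8 at 60 minutes.

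AT1G68360 came next at 20 and 40 minutes, with log2 ratios of 1.48 and 1.53. At 60 minutes it stood at 1.05, below AT3G51410, AT4G09890 and AT1G03820. Its deposited ratios were 2.79, 2.88 and 2.07, and its rank among named genes went from 10 through 18 to 33. AT5G66580 and AT1G68360 were the 2 of the 6 genes at or above 2-fold on all 3 arrays, a level that 0.066% of named genes met.

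AT3G51410, AT4G09890 and AT1G03820 were each near 2-fold at 60 minutes and differed more at the earlier times. AT3G51410 stood at 0.72 at 20 minutes, 1.25 at 40 minutes and 1.21 at 60 minutes, so that its lowest value was the earliest. AT4G09890 stood at 0.98, 0.74 and 1.18, with its lowest value at 40 minutes. AT1G03820 stood at 0.66, 0.85 and 1.13 and was the only one of the 6 whose deposited ratio was larger at each later time. At 60 minutes these 3 genes lay within a narrow band, at ratios of 2.31, 2.27 and 2.19.

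AT4G38820 had the lowest mean of the 6 and, as deposited, the flattest course. At 20, 40 and 60 minutes its log2 ratios were 0.65, 0.62 and 0.76, or ratios of 1.57, 1.54 and 1.69. On the 40-minute array, where many genes were high, this placed it at rank 601 of the named genes, against 96 at 20 minutes and 125 at 60 minutes.

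**Figure D1:**
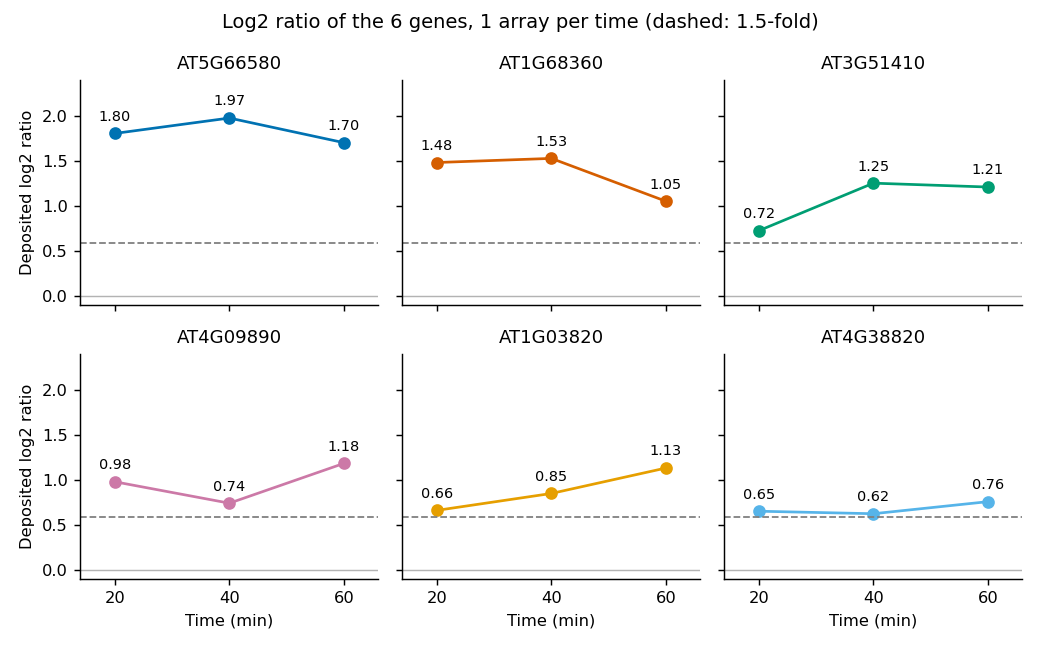
Deposited log2 ratio (vertical axis) of each of the 6 genes against time in minutes (horizontal axis), 1 array per time and therefore no error bars. The dashed line is 1.5-fold. AT5G66580 runs between 1.70 and 1.97, AT4G38820 between 0.62 and 0.76.

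At 20, 40 and 60 minutes, 1.24%, 5.73% and 2.24% of all named genes were at least 1.5-fold positive, and 0.107% met this at all 3 times. These shares are the background of the choice and say nothing further about the 6 genes. The share that met it at all 3 times was 0.0561% of genes without a symbol, which are the 6 genes, and 0.486% of genes with a symbol, which are 7 of 1440. Just inside the threshold lay AT4G38820, with a lowest ratio of 1.54, and AT1G03820, with 1.58. Just outside it, among genes without a symbol, lay AT1G29630 (lowest ratio 1.48), AT3G50800 (1.45) and AT3G55720 (1.41). AT3G50800 stood at 1.30 at 20 minutes, 0.65 at 40 minutes and 0.54 at 60 minutes, and was thus under 1.5-fold on the last array alone. AT1G29630 was above 1.5-fold at 20 and 40 minutes, with log2 ratios of 0.97 and 1.15, and stood at 0.57 at 60 minutes.

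Named genes at least 1.5-fold positive at both 40 and 60 minutes numbered 69, which is 0.569% of all named genes, and the 6 genes are 8.7% of the 69 by their choice. A dye effect of single probes that recurs on every array cannot be told apart from an effect of IAA in this design.

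With 1 array per time, no error can be put on a single ratio. One gauge of precision comes from the 55 named genes with several probes. Their probes differed by a median of 0.13 on the log2 scale at 20 minutes, 0.15 at 40 minutes and 0.12 at 60 minutes, and the 90th percentile of the difference was 0.39, 0.45 and 0.48. Against this percentile, neighbours in the order of the 6 genes were further apart in 1 of 5 steps at 20 minutes (AT1G68360 over AT4G09890, by 0.50), 0 of 5 at 40 minutes and 1 of 5 at 60 minutes (AT5G66580 over AT3G51410, by 0.49). The remaining steps between neighbours in the order lie below this percentile. Each of the 6 genes was read by 1 probe, so none has such a check of its own.

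The arrays differed in spread, and this bears on every statement about time. At 20, 40 and 60 minutes the robust SD over all probes (from the median absolute deviation) came to 0.165, 0.221 and 0.110. In units of that spread all 6 genes were highest at 60 minutes. AT5G66580 stood at 11.0, 8.93 and 15.5 robust SDs at the 3 times, and AT4G38820 at 3.95, 2.82 and 6.90. As deposited, 3 genes were highest at 40 minutes and 3 at 60 minutes, while after quantile normalization 4 were highest at 20 minutes. AT3G51410 and AT1G03820 were higher at 60 than at 20 minutes as deposited, by 0.49 and 0.47, and after quantile normalization, by 0.31 and 0.30. Scaling widens the 60-minute array and could only enlarge these differences. The step of AT1G03820 from 20 to 40 minutes was 0.19 as deposited, -0.03 after scaling and -0.20 after quantile normalization. AT4G09890 was lower at 40 minutes than at 20 and 60 minutes as deposited, by 0.24 and 0.44. Both lie under the 90th percentile of the difference between probes of a gene at 40 minutes (0.45). AT4G38820 was also lowest at 40 minutes, but by 0.03 and 0.13, which is no more than the median difference between probes of a gene at 40 minutes. Both comparisons use differences between probes on the same array, which hold no variation between arrays and so do not gauge a change over time. Scaling and quantile normalization shrink the 40-minute array, so they give no check of a low value there. For AT5G66580 and AT1G68360 no step kept its sign over the deposited, centred, scaled and quantile-normalized values, including the lower value of AT1G68360 at 60 minutes. All 18 values of the 6 genes stayed positive under each setting. This was nearly fixed by the choice of high values, since each setting keeps the order of values within an array.

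**Figure D2:**
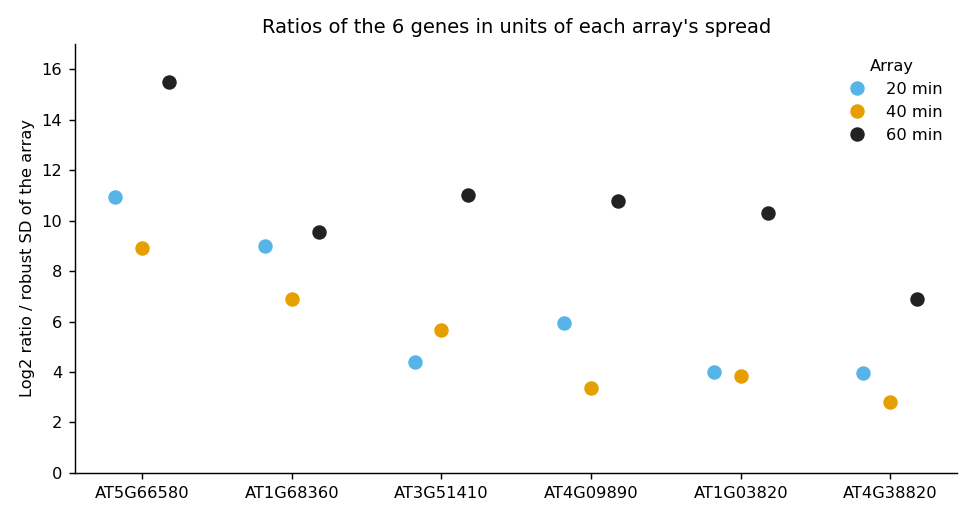
Log2 ratio divided by the robust SD of the array (vertical axis) for the 6 genes (horizontal axis), with 1 point for each array at 20, 40 and 60 minutes. For each gene the 60-minute point is the highest, from 6.90 for AT4G38820 to 15.5 for AT5G66580.

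The 7 genes with a symbol at least 1.5-fold positive on all 3 arrays were all members of those early auxin gene lists. They are the GH3 genes GH3.1, GH3.3 and WES1 (GH3.5), the lateral root transcription factor genes LBD29 and LBD16, the HD-Zip II transcription factor gene HAT2, and WAG2, a protein kinase gene linked to auxin transport. The lists were drawn up with earlier results of these data known, so this match is not independent of the values. HAT2 and WAG2 were each the only measured member of their list. Ordered by mean log2 ratio, AT5G66580 (mean 1.83) took place 6 of these 13 genes, below LBD16 at 2.04 and above WAG2 at 1.40. AT1G68360 (1.35) took place 8, and AT3G51410 (1.06), AT4G09890 (0.97), AT1G03820 (0.88) and AT4G38820 (0.68) took places 10 to 13, below WES1 at 1.07. WES1 itself stood at 0.77, 0.61 and 1.82, so it lay within the range of the 6 genes at 20 minutes, just below it at 40 minutes and above it at 60 minutes.

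As deposited, each of the 5 GH3 and LBD genes among these 7 had a wider difference between 20 and 60 minutes than any of the 6 genes without a symbol. The log2 ratio of GH3.3 went from 2.0 to 4.02, that of LBD29 from 1.58 to 2.91 and that of GH3.1 from 2.45 to 3.54. Among the 6 genes the widest such difference was that of AT3G51410, from 0.72 to 1.21. HAT2 and WAG2, also among the 7, differed less than AT3G51410, from 2.33 to 2.56 and from 1.19 to 1.46. With 1 array per time no difference in course was tested.

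**Figure D3:**
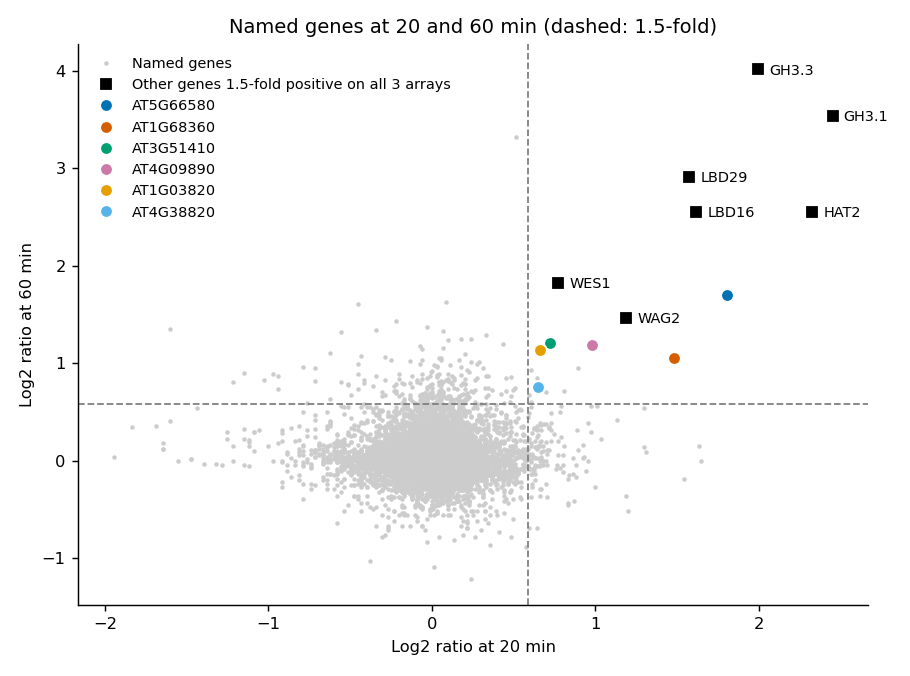
Log2 ratio at 20 minutes (horizontal axis) against 60 minutes (vertical axis) for the 12127 named genes (grey). The 6 genes are coloured, the 7 other genes at least 1.5-fold positive on all 3 arrays are black squares with their symbols, and dashed lines mark 1.5-fold. AT5G66580 lies at 1.80 and 1.70, and GH3.3 lies highest at 2.0 and 4.02.

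Of the 132 genes on the early auxin lists, 18 were measured under a name, and 8, 10 and 9 of these were at least 1.5-fold positive at 20, 40 and 60 minutes, where the shares of all named genes were 1.24%, 5.73% and 2.24%. Their median log2 ratio was 0.53, 0.77 and 0.61 at the 3 times, beside medians of 0.00, 0.03 and 0.01 over all named genes. The 3 measured of 80 SAUR genes included 0 at that level at all 3 times, where the share of all named genes was 0.107%. A count of 0 of 3 is near that share and says little about these genes. AT2G18010, a SAUR gene, stood at 0.42, 0.93 and 0.69, while AT4G34800 stood at 0.19, -0.18 and -0.06 and AT1G43040 at -0.12, 0.04 and -0.25. The Aux/IAA list had 5 of 29 members measured, with median log2 ratios of 0.04, 0.04 and 0.15. Of the 5, IAA30, at 0.54, 1.06 and 0.53, came nearest to being 1.5-fold positive at every time. IAA31 went from 1.19 at 20 minutes to -0.36 at 60 minutes. IAA34 stood at 0.04, 0.30 and 0.45, and IAA18 and IAA20 lay between -0.20 and 0.15.

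AT4G38820 has a particular place in the annotation. In the RefSeq gene table its interval lies wholly (100%) within that of AT4G38825, which the table lists as SAUR13, and the other nearby genes include SAUR14 (AT4G38840) and SAUR15. SAUR13, SAUR14 and SAUR15 were not measured under a name. The table gives no strand and the probe sequence was not used here, so whether the AT4G38820 probe reads transcripts of AT4G38820, of SAUR13 or of both cannot be told apart. None of the 3 neighbours on each side of the other 5 genes overlapped them.

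The genes next to the 6 on the chromosomes are described here by their values. Of the 36 neighbouring places, 3 on each side of each gene, 12 held a gene measured under a name. Of these 12, 0 were at least 1.5-fold positive at all 3 times, where the share of all named genes was 0.107%. A count of 0 of 12 is near that share and does not set the neighbours apart from other genes. At single times the counts were 0 at 20 minutes, 3 at 40 minutes (AT4G09880, AT4G09930 and AT1G03810) and 0 at 60 minutes, beside shares of 1.24%, 5.73% and 2.24% of all named genes. The neighbours' median log2 ratio was -0.02, -0.03 and 0.09. AT5G66590, next to AT5G66580, stood at 0.28, -0.30 and 0.15. AT3G51400, the nearest measured neighbour of AT3G51410, was on the negative side throughout, at -0.27, -0.42 and -0.67. AT1G03810, next to AT1G03820, stood at 0.46 and 0.61 at 20 and 40 minutes and at -0.22 at 60 minutes, close to its neighbour at first and on the other side later. The measured neighbours of AT1G68360 (AT1G68340, AT1G68350, AT1G68380 and AT1G68390) ranged from -0.43 to 0.19, and AT4G38810, near AT4G38820, from -0.14 to -0.04. Near AT4G09890, AT4G09920 reached 0.23, AT4G09930 stood at 1.43 at 40 minutes alone, and AT4G09880 turned from -0.62 at 20 minutes to 0.70 at 40 minutes.

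**Figure D4:**
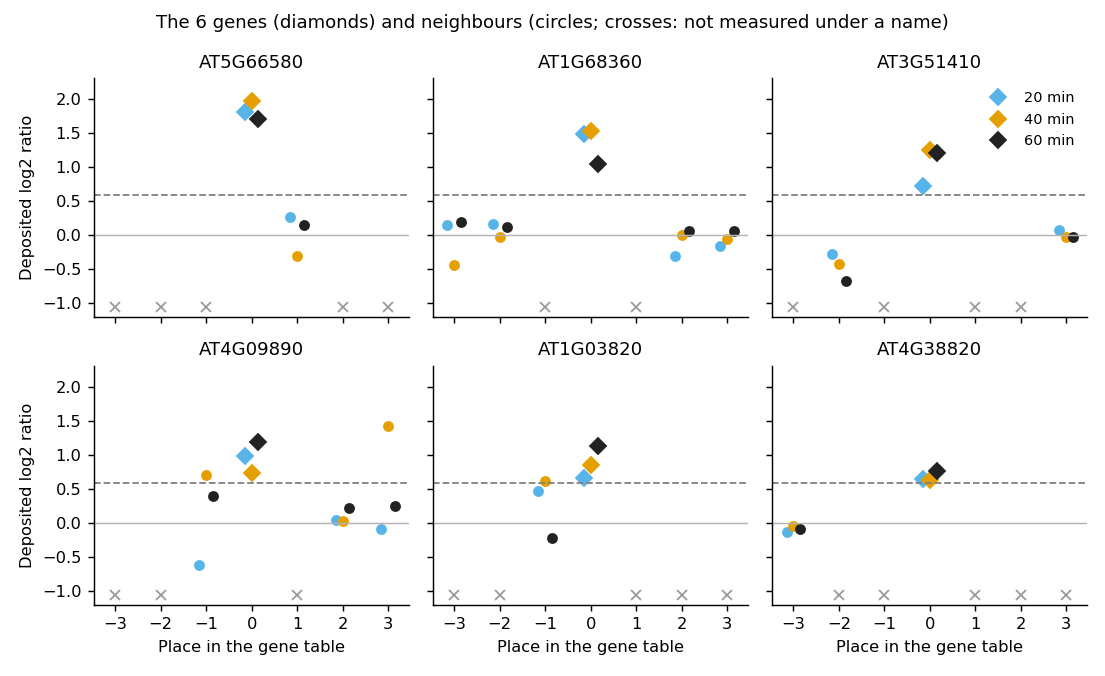
Deposited log2 ratio (vertical axis) of each of the 6 genes (diamonds, place 0) and of the genes up to 3 places away in the RefSeq gene table (circles), by place (horizontal axis) and array (colour, 20, 40 and 60 minutes). Crosses mark places whose gene was not measured under a name, and the dashed line is 1.5-fold. Measured neighbours lie between -0.67 and 1.43.

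Probes adjacent to the 6 genes by probe number are described here by their values. The 6 genes were chosen as high, so medians below theirs follow from that choice. The median over the 10 probes on each side lay between -0.14 and 0.06 at 20 minutes, between 0.04 and 0.16 at 40 minutes and between -0.01 and 0.03 at 60 minutes, where the 6 genes had medians of 0.85, 1.05 and 1.16. In each set of 20 adjacent probes, 0 were at least 1.5-fold positive on all 3 arrays. The shares were 0.107% of named genes and 0.38% of probes without a gene name, so 0 of 20 does not set these probes apart.

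The named genes closest to each of the 6 were found by Euclidean distance over the 3 log2 ratios, which weighs level as well as course and rests on 3 arrays only. Only 8 named genes, AT5G66580 and AT1G68360 among them, were at least 2-fold positive on all 3 arrays. The genes closest to these 2 thus come from few candidates of like level. WAG2 was the closest to AT5G66580 (distance 0.78) and to AT1G68360 (0.51), and the third for AT3G51410 (0.61). LBD16 and HAT2 followed for AT5G66580, at 0.88 and 1.05, and AT1G29630 and AT1G64300 for AT1G68360, at 0.80 and 1.01. AT3G51410 was closest to AT1G14500 and AT1G03990 (both 0.55), which stood at 0.20 and 0.18 at 20 minutes and above 1 at both later times. AT3G28420, at 0.64, 0.49 and 0.85, and AT1G63570, at 0.45, 0.65 and 0.85, were among the 3 closest to each of AT4G09890, AT1G03820 and AT4G38820. The third place was taken by AT2G36220 for AT4G09890 (0.57), by TRM24 for AT1G03820 (0.49) and by AT3G55840 for AT4G38820 (0.24). Among the 6 themselves, AT4G09890 and AT1G03820 were the closest pair (0.34) and AT5G66580 and AT4G38820 the furthest (2.01).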

How the data were processed

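RNA of IAA-treated and ethanol-treated seedlings was compared on 3 two-colour arrays, 1 per time. The authors deposited log2 ratios for 21939 probes. That the base is 2 was read from the deposited values, since 2 raised to each log2 value is a multiple of 0.01 (100% of values on each array). For the dyes, the numerator, the background correction, the normalization and the array model, the sources used here say nothing, and without spot intensities no signal over background can be stated. The number of arrays limits the precision. Missing values numbered 9, 10 and 7.

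Gene names came from GEO's platform annotation and were brought up to date with RefSeq (TAIR10.1) through the gene identifiers. A single gene was listed for 12195 probes (53 of these kept the annotation's name), several for 1, and 9743 are unnamed here. Probes of a gene were averaged. No genome build is named by the values, so no coordinates are given. Python 3.11.15 and pandas 2.3.3 were used, and the counting was tested on simulated data. No p-values were computed, since each time has 1 array and the rule used all 3. Counts take genes at or above 1.5-fold.

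The 6 genes and the gene lists were chosen with earlier results of these data known. The list's locus codes were written from memory, with SAUR genes taken by symbol or synonym from RefSeq. Other genes named are the list genes, the 3 nearest patterns, the measured neighbours within 3 places and the 3 genes without a symbol just below the threshold. SAUR genes, IAA30 and WES1 were singled out after their values were seen. Relatives by protein sequence and promoter motifs were planned and not analysed here.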

Additional observations from a re-analysis of the deposited data

Results flagged for a closer look

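AT4G09880, the chromosomal neighbour of AT4G09890, was beyond 1.5-fold at both 20 and 40 minutes, but on opposite sides. Its log2 ratios were -0.62, 0.70 and 0.40 at 20, 40 and 60 minutes, so that the value at 40 minutes exceeded that at 20 minutes by 1.32. With 1 array per time the difference was not tested. AT4G09890 itself was positive at all 3 times.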

How the results depend on the processing

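All 6 genes stayed at or above 1.5-fold at all 3 times after each array's median was subtracted. With the arrays scaled to the same median absolute deviation, and also after quantile normalization, 4 of the 6 did so. Genes without a symbol that met the rule then numbered 5 after scaling and 6 after quantile normalization. Which genes make up the set thus depended on the processing. Both settings took AT4G09890 (lowest ratio 1.44 and 1.46) and AT4G38820 (1.36 and 1.38) below the threshold, on the 40-minute array, whose wide spread both settings reduce. At a 2-fold threshold 2 of the 6 remained, AT5G66580 and AT1G68360. Without any 1 array the 6 genes met the rule on the other arrays by construction, and their mean log2 ratio lay between 1.75 and 1.89 for AT5G66580, 1.26 and 1.503 for AT1G68360, 0.97 and 1.23 for AT3G51410, 0.86 and 1.08 for AT4G09890, 0.75 and 0.99 for AT1G03820, and 0.64 and 0.70 for AT4G38820. The early auxin list count of 7 ranged from 6 to 9 over these settings. The count of 0 among chromosomal neighbours stayed 0 under each. It also stayed 0 with protein-coding neighbours alone (17 measured), an alternative chosen after seeing the data. As the share of all named genes was 0.107% as deposited, a count that stays 0 says little about the neighbours. No value of the 6 genes changed sign, as their choice by high values made nearly certain. Among their 24 single and mean values, scaling moved 10 and quantile normalization 7 by more than 1 robust SD of the array (single times) or 1 SD over the 3 times (means). Searches by protein sequence and for promoter motifs, with their alternatives, were not run. No paired analysis was possible because each time has 1 array.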

Other observations

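AT1G68330, 3 protein-coding genes away from AT1G68360 and outside the neighbours counted above, stood at 0.45, 0.46 and 0.43 on the log2 scale at 20, 40 and 60 minutes. It was chosen after its values were seen, and 12.9% of all named genes were positive at all 3 times. Among probes without a gene name, 37 of 9732 (0.38%) were at least 1.5-fold positive at all 3 times.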
